A study of Drosophila melanogaster with 24 samples.

Results

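The genotype-by-stage interaction asks, gene by gene, whether the expression difference between *Acf* mutant and wild-type *Drosophila* embryos was the same before and after the zygotic genome had been switched on. It was computed from 23 of the 24 single-embryo RNA-seq libraries of the series, and a gene was tested when it had 0 counts in fewer than 50% of these embryos, which kept 9515 of 17370 genes. The mutant, AcfC, carries a deletion of most of *Acf* that spares the 5′ and 3′ UTRs, made in another background and then backcrossed to Oregon-R (*OrR*) over several generations. All AcfC embryos therefore come from 1 deletion line, and the controls are *OrR* embryos with an intact *Acf*. The deletion was made with donor DNA that held a dsRed marker cassette, and carriers were found by red eye fluorescence. Embryos of both genotypes were picked by hand at Bownes Stage 3 (around 1 h of development, when pole cells appear) and at Bownes Stage 8 (around 4 h, during germ band elongation), and each library was made from 1 whole embryo. The embryos compared were 5 AcfC and 6 *OrR* embryos at Stage 3, and 6 AcfC and 6 *OrR* embryos at Stage 8. The AcfC Stage 3 embryo of replicate 2 was not used because its staging was in doubt.

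*Acf* encodes ACF1, the large subunit that defines the nucleosome sliding complexes ACF and CHRAC, in which it works with the ATPase ISWI. A fly embryo starts with RNA that its mother placed in the egg, and its own genes are transcribed only sparsely at first. During the maternal-to-zygotic transition much of the maternal RNA is degraded while zygotic genome activation (ZGA) fills the embryo with newly made transcripts. A difference between the genotypes at Stage 3 is thus mostly one in RNA inherited from the mother, whereas a difference at Stage 8 can lie in what was inherited, in what was cleared or in what was newly made, and RNA totals of whole embryos cannot tell these apart.

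The libraries held 4213692 to 11614741 counts in the AcfC embryos and 7448149 to 11935129 in the *OrR* embryos, the smallest being AcfC Stage 8 replicate 4. Annotated rRNA genes and pseudogenes took 32.1 to 38.1% of the counts in AcfC and 29.4 to 40.0% in *OrR* at Stage 3, and 43.2 to 52.7% in AcfC and 46.9 to 50.8% in *OrR* at Stage 8. The stage markers matched the labels. The summed level of 38 gastrula patterning genes was 134 to 153 CPM (normalised counts scaled to a common library size) in AcfC and 118 to 136 CPM in *OrR* at Stage 3, against 3960 to 4880 CPM in AcfC and 3760 to 4790 CPM in *OrR* at Stage 8. Most of the Stage 3 sum came from *Mef2* and *how*, with means of 71.7 and 59.6 CPM in AcfC and 66.7 and 55.7 CPM in *OrR*. The summed level of the 19 earliest zygotic genes tested was 130 to 211 CPM in AcfC at Stage 3, and among the *OrR* embryos of that stage the highest *OrR* embryo, replicate 3, stood apart from the other 5, which lay at 123 to 137 CPM. Most of this sum was *slam*, with means of 155 CPM in AcfC and 135 CPM in *OrR*. By Stage 8 *slam* had fallen to means of 12.5 and 16.9 CPM. Eggshell and follicle cell genes, of which 9 of 21 passed the filter, summed to at most 44.6 CPM in AcfC and 78.7 CPM in *OrR* at Stage 3. The ratio of *msl-2* to *Sxl* counts split the Stage 8 embryos into 2 classes, with 2 of 6 embryos in the high class in each genotype. CPM take their library size from tested genes alone and are scaled by TMM, which sets the libraries relative to each other and does not measure RNA per embryo.

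The interaction is the log2 fold change of AcfC over *OrR* at Stage 8 minus that at Stage 3. A positive value means that AcfC stood higher relative to *OrR* at Stage 8 than it did at Stage 3, and a negative value means the opposite. Of the 9515 genes, 238 (2.5%) had an interaction at a Benjamini-Hochberg adjusted *P*-value under 0.1 in the quasi-likelihood test of edgeR, 99 of them positive (1.04%) and 139 negative (1.46%). Without adjustment, 1383 genes (14.5%) had a *P*-value under 0.05. The called interactions had a median size of 0.84 on the log2 scale, 99 exceeded 1 in size and 47 exceeded 2. The median was 1.06 among the positive and −0.76 among the negative ones. Over all genes tested it was −0.019, and 90% of them lay between −1.22 and 1.48.

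Most of these genes had a small fitted genotype effect at 1 of the 2 stages. A gene with equal effects at both stages has no interaction to call, so this follows in part from the selection. An effect under 0.5 in size is also not the absence of one. The larger of the 2 effects was at Stage 3 for 106 genes and at Stage 8 for 132 genes. Of the 106, 81 had a log2 fold change under 0.5 in size at Stage 8, and of the 132, 124 had one under 0.5 at Stage 3. The fitted effects had opposite signs for 169 genes, mostly because 1 of them was close to 0. Embryos of a group varied less at Stage 3 than at Stage 8. The edgeR coefficient of variation beyond counting error was 0.117 and 0.207 with each stage fitted alone, and 0.169 in the joint fit. The split by stage thus compares effects of unequal spread. All AcfC embryos lay above or all below the *OrR* embryos at Stage 3 for 65 of the 238 called genes and at Stage 8 for 66, compared with 4.12% and 2.41% of all genes tested, and at both stages for 6. The called genes were picked by genotype effects in these same embryos, so more separation among them is built in.

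**Figure D1:**
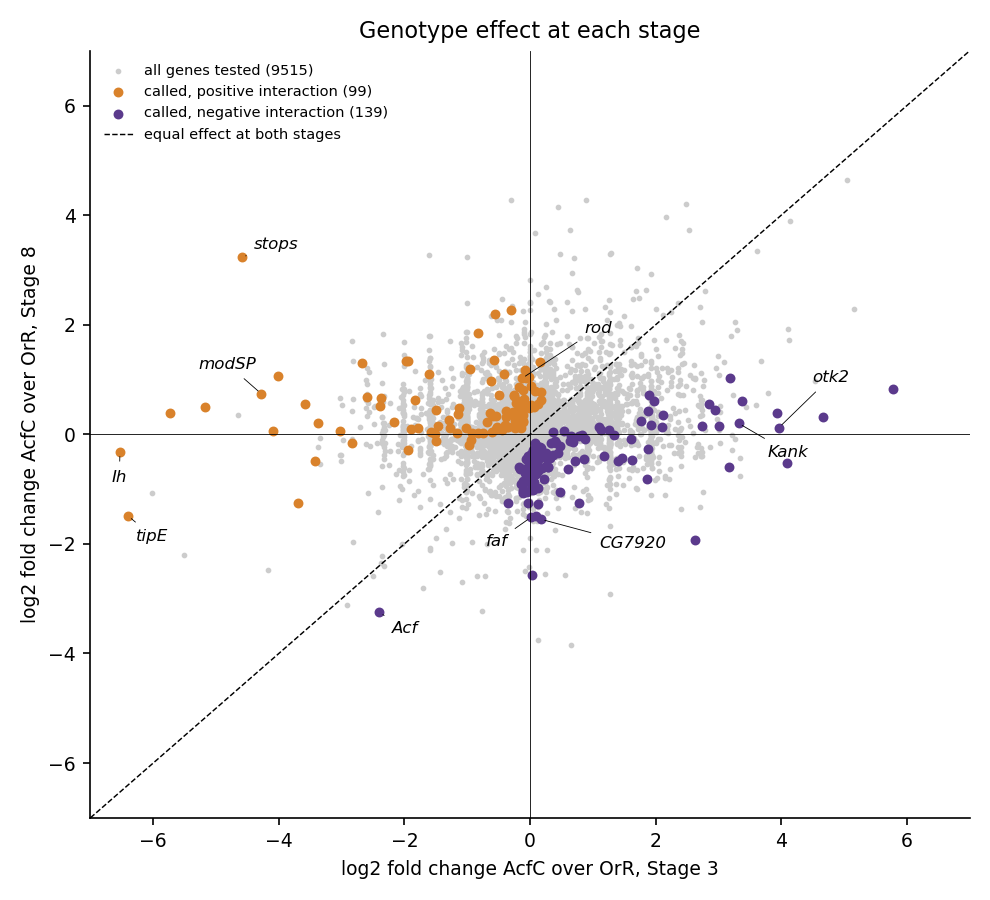
Log2 fold change of AcfC over OrR at Stage 3 (horizontal axis) and at Stage 8 (vertical axis) for the 9515 genes tested, with the 99 called genes of positive and the 139 of negative interaction in colour and the diagonal marking equal effects. The called genes lie along the 2 axes, and stops (upper left) and Acf (lower left) are the called genes farthest from both axes.

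These counts depended on single embryos. With each embryo left out in turn, 152 to 511 genes were called. The most were called without *OrR* Stage 3 replicate 3, the *OrR* embryo of that stage with the highest early zygotic sum. All 238 genes were among those called then. Without AcfC Stage 8 replicate 4, the smallest library, 368 genes were called. The fewest, 152 and 158, were called without AcfC Stage 3 replicate 4 and without AcfC Stage 3 replicate 1. Both of these AcfC embryos had a higher early zygotic sum, 211 CPM each, than *OrR* Stage 3 replicate 3. Whether the number called depends on this sum was not tested. Replicates 4 to 6 reuse the sequencing indexes of replicates 1 to 3, so that the libraries may have been made or run in 2 sets, and a fit within replicates 1 to 3 called 18 genes and one within replicates 4 to 6 called 281. The sets also differed in the ratio of *msl-2* to *Sxl* at Stage 8. Its high class was AcfC replicates 2 and 3 in the first set and *OrR* replicates 5 and 6 in the second. The first set also lacks AcfC Stage 3 replicate 2. All 238 genes kept the sign of their interaction in both sets, but they were picked in a fit to these same embryos, so this is no independent check.

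*Acf* itself had an interaction. At Stage 3 its level was 69.5, 66.3, 75.3, 54.5 and 68.3 CPM in the AcfC embryos, against 334 to 367 CPM in *OrR* (median 351). Stage 8 levels were 22.7 to 36.2 CPM in AcfC (median 26.6) and 260 to 277 CPM in *OrR* (median 273). Both stages separate the genotypes without overlap, which checks the labels, and the remaining reads in AcfC are ones counted on the annotated gene, whose UTRs the deletion leaves in place and which overlaps *CG42233*. The log2 fold change was −2.40 at Stage 3 and −3.25 at Stage 8, an interaction of −0.85 (SE 0.131, edgeR adjusted p = 0.000594), with −0.74 in replicates 1 to 3, where it was not called (adjusted p = 0.301), and −0.97 in replicates 4 to 6. *Acf* (FBgn0027620) lies on 3R from 31793981 to 31799799 in the release 6 assembly.

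The partners of ACF1 showed no called interaction. *Iswi*, the ATPase, had 194 to 222 CPM in AcfC and 172 to 206 CPM in *OrR* at Stage 3, and 608 to 664 CPM in AcfC and 564 to 605 CPM in *OrR* at Stage 8, with an interaction of −0.08 (SE 0.069, edgeR adjusted p = 0.643). The histone-fold subunits of CHRAC, *Chrac-14* and *Chrac-16*, had interactions of −0.19 (SE 0.115) and −0.03 (SE 0.113). Over the 8 ISWI remodeler subunits only *Acf* was called, and the other 7 lay between −0.23 (*Caf1-55*) and 0.02 (*E(bx)*).

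Among genes with the larger effect at Stage 3, 59 were positive: relative to *OrR*, AcfC embryos carried less of their RNA before ZGA than at Stage 8. The largest interaction among the named genes was that of *stops*, which encodes a SOCS box protein of photoreceptors. It had 1, 0, 0, 1 and 1 counts in the AcfC embryos of Stage 3, against 7 to 31 counts in *OrR* (median 1.58 CPM). Its Stage 8 counts were 7 to 46 counts in AcfC (median 3.14 CPM) and at most 3 counts in *OrR* (median 0.364 CPM). The genotypes were thus separated without overlap in opposite directions. Measured against 3 counts per library, *stops* was at least 5.67-fold lower in AcfC at Stage 3 and at least 7.39-fold higher at Stage 8, and its interaction (edgeR adjusted p = 3.38e-07) was called in both sets of replicates, with adjusted p = 0.0304 and 0.00374. The fitted value of 7.82 depends on the small count that edgeR adds to the near-empty groups. *stops* lies 0.625 Mb from *Acf* on 3R, and its span overlaps that of *Gycbeta100B*. These libraries do not keep strand, so reads from any stretch that both genes share cannot be assigned to either.

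*CG7565* had 1.21, 2.22, 1.34, 1.45 and 0.723 CPM in the AcfC embryos of Stage 3, against 5.16 to 18.2 CPM in *OrR* (median 11.2). At Stage 8 it had 21.6 to 31.7 CPM in AcfC (median 28.6) and 22.3 to 30.2 CPM in *OrR* (median 27.3). The separation before ZGA was complete and had gone by Stage 8, which gave an interaction of 3.10 (SE 0.358, edgeR adjusted p = 2.12e-05). *Galphas*, the alpha subunit of the stimulatory G protein, showed the same course at a very different level. Its 5 AcfC embryos of Stage 3 had 1, 2, 1, 0 and 4 counts, against 9 to 22 counts in *OrR* (median 1.25 CPM), whereas Stage 8 embryos had 100 to 119 CPM in AcfC (median 113) and 115 to 136 CPM in *OrR* (median 125). The interaction was 2.66 (SE 0.399, edgeR adjusted p = 0.000496), but with the improperly staged AcfC embryo included it was 0.82 and was not called (adjusted p = 0.472).

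Further genes of this group were separated at Stage 3 alone. *modSP*, a serine protease that acts upstream of the Toll pathway in immune defence, had 2, 0, 4, 0 and 2 counts in the AcfC embryos of Stage 3, against 7 to 77 in *OrR* (median 2.57 CPM), and 6.38 to 18.2 CPM in AcfC (median 10.1) and 4.09 to 9.04 CPM in *OrR* (median 6.99) at Stage 8. *Phyhd1*, named for its phytanoyl-CoA dioxygenase domain, had 0.117 to 2.86 CPM in AcfC and 3.09 to 10.2 CPM in *OrR* at Stage 3, and 38.3 to 66.2 CPM in AcfC and 16.9 to 41.8 CPM in *OrR* at Stage 8. Their interactions were 5.02 (SE 0.743, edgeR adjusted p = 0.000488) and 3.28 (SE 0.491, adjusted p = 0.000496). *CG11382* and *CG13101* were also separated without overlap at Stage 3, at medians of 0.223 and 1.00 CPM in AcfC against 1.82 and 8.80 CPM in *OrR*, and overlapped at Stage 8, with interactions of 3.58 (SE 0.604, edgeR adjusted p = 0.00174) and 2.95 (SE 0.548, adjusted p = 0.00366). With limma-voom and a variance per group *CG13101* was not called (2.54, adjusted p = 0.142).

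For the neuronal channel genes in this group the *OrR* embryos themselves disagreed. *Ih*, the channel of the hyperpolarization-activated current, had at most 1 count in any AcfC embryo of Stage 3, while the *OrR* embryos ranged from 1 to 140 counts. It had 2.20 to 6.86 CPM in AcfC (median 3.4) and 2.84 to 8.61 CPM in *OrR* (median 3.99) at Stage 8. *tipE*, an auxiliary subunit of the voltage-gated sodium channel, had 1 to 7 counts in AcfC and 2 to 627 counts in *OrR* at Stage 3, and 0.857 to 3.78 CPM in AcfC and 0.837 to 11.6 CPM in *OrR* at Stage 8. The genotypes overlapped at both stages for both genes. The interaction of *Ih* was 6.20 (SE 1.27, edgeR adjusted p = 0.0094) and was not called by limma-voom with a variance per group (4.61, adjusted p = 0.122), while that of *tipE* (4.91, SE 1.38, adjusted p = 0.0778) was lost when any 1 of 12 embryos was left out, with adjusted p up to 0.147.

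The other 47 genes with the larger effect at Stage 3 were negative: relative to *OrR*, AcfC embryos held more of their RNA before ZGA than at Stage 8. *otk2*, a receptor-like pseudokinase that takes part in Wnt signalling, had the smallest *P*-value among the negative genes. It had 36.0, 58.6, 51.6, 42.5 and 58.7 CPM in the AcfC embryos of Stage 3, against 2 to 4.36 CPM in *OrR* (median 3.32). By Stage 8 it had 7.71 to 24.7 CPM in AcfC (median 17.7) and 11.2 to 25.8 CPM in *OrR* (median 15.4). A complete separation at Stage 3 with 328 to 812 counts per AcfC embryo had become full overlap at Stage 8, in AcfC at a lower and in *OrR* at a higher level than at Stage 3. The interaction was −3.85 (SE 0.351, edgeR adjusted p = 4.07e-07), with −3.63 in replicates 1 to 3 and −4.02 in replicates 4 to 6. *exp*, which shapes the tubes of the tracheal system, followed a like course, with 15.9, 12.7, 18.2, 15.6 and 1.73 CPM in AcfC and 0.353 to 1.24 CPM in *OrR* (median 0.906) at Stage 3, and 2.21 to 6.85 CPM in AcfC (median 4.00) and 1.96 to 4.39 CPM in *OrR* (median 2.85) at Stage 8. Its interaction was −3.54 (SE 0.608, edgeR adjusted p = 0.00196), and the lowest AcfC value, 1.73 CPM, was that of replicate 6. With limma-voom and a variance per group *exp* was not called (−3.25, adjusted p = 0.19).

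Several genes with high RNA levels at Stage 8 differed in the smaller amount present before ZGA. *fz2*, a receptor for Wnt ligands, had 33.1, 30.9, 37.2, 26.1 and 32.7 CPM in the AcfC embryos of Stage 3, against 10.4 to 15.5 CPM in *OrR* (median 12.4), while at Stage 8 it had 295 to 424 CPM in AcfC and 294 to 437 CPM in *OrR*, with a median of 333 CPM in each genotype. The interaction was −1.35 (SE 0.167, edgeR adjusted p = 5.13e-05). *corn*, a microtubule-binding protein, had 2.09 to 2.67 CPM in AcfC and 0.532 to 1.15 CPM in *OrR* at Stage 3, and 328 to 408 CPM in AcfC and 323 to 407 CPM in *OrR* at Stage 8 (interaction −1.18, SE 0.170, edgeR adjusted p = 0.000381, and −0.87, adjusted p = 0.146, after thinning all libraries to the smallest). *tna*, a SUMO ligase family protein of the trithorax group, had 11 to 17 counts in AcfC and 0 to 3 counts in *OrR* at Stage 3, which is at least 5.06-fold higher in AcfC measured against 3 counts per library. At Stage 8 it had 169 to 206 CPM in AcfC (median 174) and 141 to 184 CPM in *OrR* (median 163), and its interaction was called (edgeR adjusted p = 2.12e-05).

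*Kank*, an ankyrin repeat protein, had 9 to 31 counts in AcfC and at most 3 counts in *OrR* at Stage 3, at least 6.83-fold higher in AcfC, and 42.6 to 65.7 CPM in AcfC and 28.4 to 54.0 CPM in *OrR* at Stage 8. *Ac3*, an adenylyl cyclase, had 3.49 to 7.13 CPM in AcfC and 0.086 to 1.41 CPM in *OrR* at Stage 3, and 22.8 to 37.1 CPM in AcfC and 22.9 to 31.9 CPM in *OrR* at Stage 8, with an interaction of −2.86 (SE 0.390, edgeR adjusted p = 0.000196). Both genes were separated only before ZGA. *CG17167* (interaction −2.16, edgeR adjusted p = 0.0737) lost its call when any 1 of 11 embryos was left out. So did *lncRNA:CR44504* (−4.62, adjusted p = 0.0762) for any 1 of 12, and at Stage 3 it rested on 20 and 35 counts in 2 of the 5 AcfC embryos. These were replicates 1 and 4, the AcfC embryos of that stage with the highest early zygotic sum, 211 CPM each. AcfC replicate 5 had 2 counts, and replicates 3 and 6 had 0. The only *OrR* embryo of Stage 3 with counts, 4, was replicate 3, which had the highest *OrR* sum. Whether the interaction of *lncRNA:CR44504* depends on this sum was not tested.

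**Figure D2:**
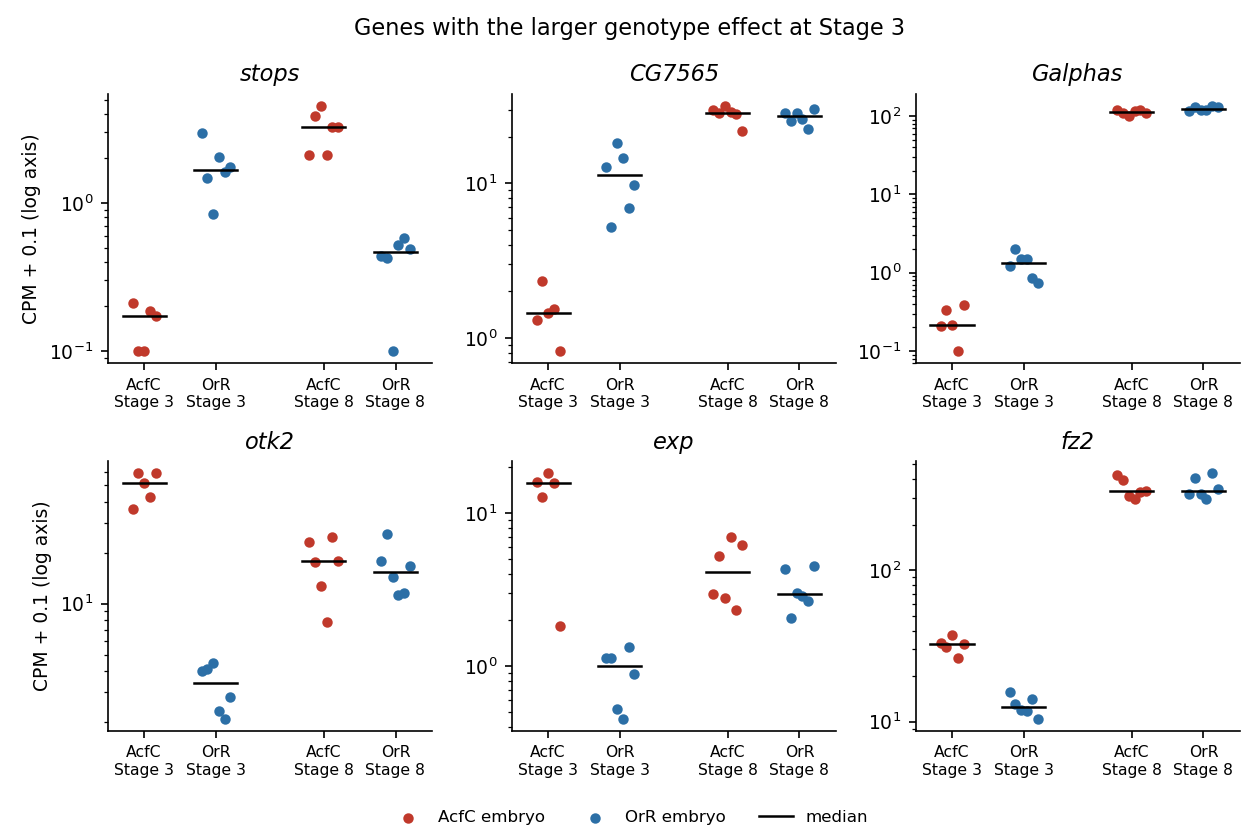
CPM plus 0.1 (log axis) of 6 genes in each embryo, AcfC in red (5 embryos at Stage 3, 6 at Stage 8) and OrR in blue (6 and 6), with the median as a line. The genotypes are apart at Stage 3, with stops, CG7565 and Galphas lower and otk2, exp and fz2 higher in AcfC, and overlap at Stage 8 except for stops, where the order is turned round.

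The 132 genes with the larger effect at Stage 8 included 92 negative ones, for which AcfC embryos stood lower relative to *OrR* at Stage 8 than at Stage 3. *faf*, a deubiquitinating enzyme known from eye development and oogenesis, had 623, 558, 623, 658 and 630 CPM in the AcfC embryos of Stage 3, against 581 to 644 CPM in *OrR* (median 607). At Stage 8 it had 75.1 to 184 CPM in AcfC (median 113) and 232 to 415 CPM in *OrR* (median 344). The levels overlapped before ZGA and were separate at Stage 8, with an interaction of −1.52 (SE 0.221, edgeR adjusted p = 0.000402). *CG7920* had 79.8, 88.3, 88.7, 84.6 and 85.5 CPM in AcfC and 64.8 to 84.3 CPM in *OrR* (median 76.4) at Stage 3, and 7.42 to 14.7 CPM in AcfC (median 9.68) and 15.4 to 41 CPM in *OrR* (median 32.4) at Stage 8. Its interaction was −1.72 (SE 0.242, edgeR adjusted p = 0.000282). *CG5065* lay at a few counts in every group, 9 to 17 in AcfC and 4 to 15 in *OrR* at Stage 3, and 3 to 10 in AcfC and 7 to 19 in *OrR* at Stage 8 (interaction −2.04, SE 0.515, edgeR adjusted p = 0.0442, and −2.01, adjusted p = 0.31, after thinning all libraries to the smallest).

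The remaining 40 genes were positive, with AcfC above *OrR* mainly at Stage 8. *rod*, a spindle checkpoint protein of the kinetochore, had 142, 169, 126, 164 and 171 CPM in the AcfC embryos of Stage 3, against 127 to 187 CPM in *OrR* (median 175). At Stage 8 it had 76.9 to 115 CPM in AcfC (median 85.1) and 39.1 to 49.4 CPM in *OrR* (median 44.5). The interaction was 1.15 (SE 0.148, edgeR adjusted p = 8.53e-05). *CG1792* had 16.9 to 21.3 CPM in AcfC and 16 to 24.2 CPM in *OrR* at Stage 3, and 9.14 to 10.9 CPM in AcfC and 3.49 to 5.94 CPM in *OrR* at Stage 8 (interaction 1.09, SE 0.167, edgeR adjusted p = 0.000594). *CG7878* had 49.4 to 69.1 CPM in AcfC and 57.7 to 78.6 CPM in *OrR* at Stage 3, and 24 to 35.9 CPM in AcfC and 16.6 to 18.5 CPM in *OrR* at Stage 8, with an interaction of 0.96 (SE 0.146, edgeR adjusted p = 0.000589). In all 3 genes the genotypes overlapped before ZGA, and every AcfC embryo lay above every *OrR* embryo at Stage 8.

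Among called genes with a mean of 10 or more normalised counts in at least 1 genotype at each stage, 4 had an effect past the adjusted *P*-value of 0.1 at both stages, in the single-stage contrasts of the same fit, and of opposite sign. One is *stops*. *Dyro* had 62.7, 68.6, 71.5, 51.8 and 70.8 CPM in the AcfC embryos of Stage 3, against 42.3 to 52.5 CPM in *OrR* (median 46.3), and 1.89 to 5.51 CPM in AcfC (median 2.36) and 4.74 to 7.15 CPM in *OrR* (median 6.04) at Stage 8. *Dyro* RNA was therefore more abundant in AcfC before ZGA and less abundant after it, with an interaction of −1.53 (SE 0.234, edgeR adjusted p = 0.000594). *CG10286* and *gammaCOP*, a subunit of the COPI coat, went the other way, with medians of 20.2 and 82.3 CPM in AcfC against 26.9 and 99.8 CPM in *OrR* at Stage 3, and 43.9 and 81.2 CPM in AcfC against 35.0 and 66.2 CPM in *OrR* at Stage 8. Their interactions were 0.71 (SE 0.128) and 0.48 (SE 0.094). By the separation of embryos rather than by *P*-value, and named after their values were seen, *HPS4* and *wake* also changed sides without overlap: *HPS4* had 48.8 ± 3.16 CPM (SD, n = 5) in AcfC and 41 ± 2.30 (n = 6) in *OrR* at Stage 3, and 10.5 ± 1.30 in AcfC and 15.7 ± 2.86 in *OrR* at Stage 8 (n = 6 each), and *wake* had 112 ± 25.6 CPM in AcfC and 68.5 ± 23 in *OrR* at Stage 3, and 285 ± 43 in AcfC and 400 ± 21.7 in *OrR* at Stage 8.

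**Figure D3:**
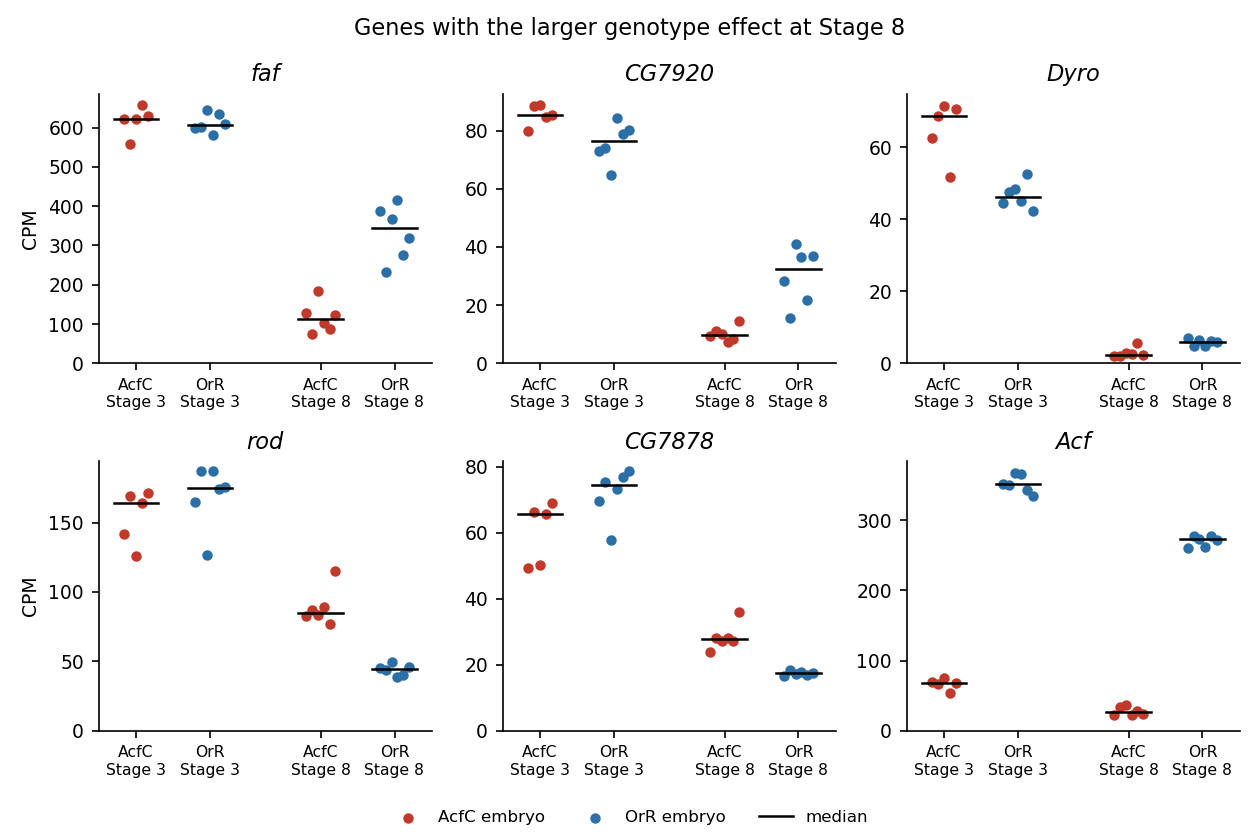
CPM (linear axis from 0) of 6 genes in each embryo, AcfC in red and OrR in blue, with the median as a line. At Stage 8 faf and CG7920 lie lower and rod and CG7878 higher in AcfC without overlap, Dyro changes sides between the stages, and Acf lies low in AcfC at both stages.

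The genes were also classed by how their RNA changed between the stages, from the mean of both genotypes. Of the 2729 genes tested whose RNA was at least 4-fold more abundant at Stage 8, 47 (1.72%) were called, and for 46 of them the larger genotype effect was at Stage 3, where their levels are low. The exception, *Corin*, named after its values were seen, had 0.288 ± 0.14 CPM (SD, n = 5) in AcfC and 0.426 ± 0.291 (n = 6) in *OrR* at Stage 3, and 10.8 ± 4.01 CPM in AcfC and 2.34 ± 1.32 in *OrR* at Stage 8 (n = 6 each). Of the 1105 genes whose RNA was at least 4-fold less abundant at Stage 8, the class that holds most cleared maternal RNAs, 47 (4.25%) were called, and for 44 of them the larger effect was at Stage 8. Among these 44, 33 were negative and 11 positive. The 3 others, also named after their values were seen, were *Mccc1*, *CG4733* and *Cyp6d4*. The 5681 genes that changed less than 4-fold between the stages held 144 called genes (2.53%), 59 of them negative with the larger effect at Stage 8. The classes were cut from the same libraries as the effects, so these counts are a description. In the rising and the falling class the larger effect lay mostly at the stage of the lower level, where fitted fold changes are less precise. How often this holds for genes of these classes that were not called was not counted.

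The class as a whole did not shift with the 33 negative genes. The summed level of all genes in the class was 99300 to 106000 CPM in AcfC and 96400 to 108000 CPM in *OrR* at Stage 3, and 9490 to 11300 CPM in AcfC and 9390 to 10600 CPM in *OrR* at Stage 8, and the median interaction of the class was −0.05. With each embryo left out in turn, 32 to 84 genes of the class were called and 24 to 52 of them were negative, the most again without *OrR* Stage 3 replicate 3. The share of negative genes moved as well. It was 24 of 43 without AcfC Stage 8 replicate 1 and 25 of 32 without AcfC Stage 3 replicate 1, against 36 of 47 with all 23 embryos. In replicates 1 to 3 only 1 gene of the class was called, and in replicates 4 to 6 there were 54, 31 of them negative.

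**Figure D4:**
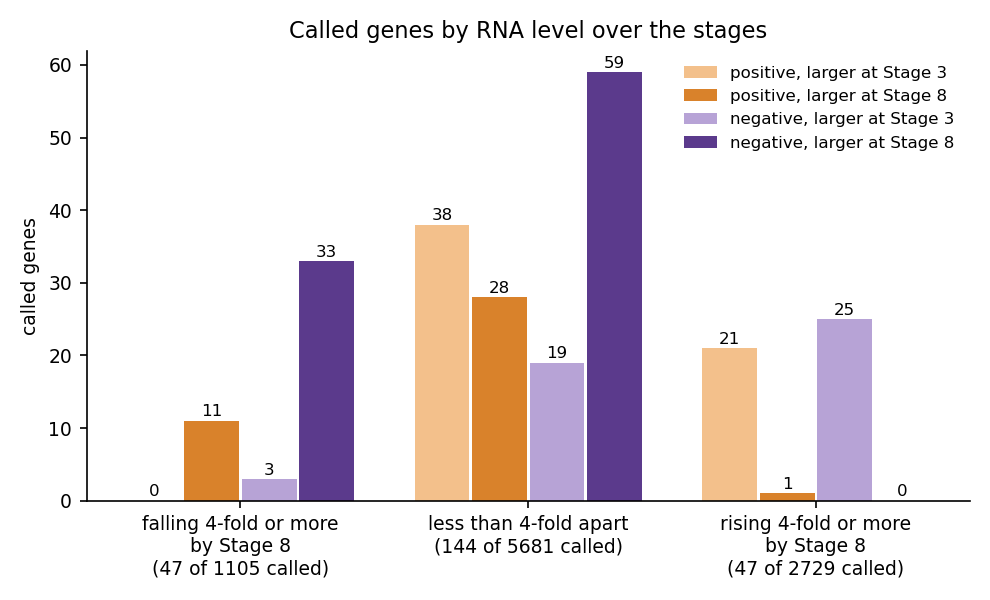
Number of called genes (vertical axis) by the sign of the interaction and the stage with the larger genotype effect, for genes whose RNA fell at least 4-fold by Stage 8, changed less than 4-fold, or rose at least 4-fold. The falling class is led by 33 negative genes with the larger effect at Stage 8, and in the rising class 46 of 47 genes have the larger effect at Stage 3. The matching shares among genes not called were not counted.

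The interaction was also described by expression quartile, since the study treats the response of lowly expressed genes to the loss of ACF1. The quartile limits in mean normalized counts over the 23 embryos were 16, 165 and 543. From the lowest to the highest quartile, 24, 59, 66 and 89 genes were called (1.01, 2.48, 2.77 and 3.74% of those tested), of which 14, 35, 22 and 28 were positive. The median interaction was 0.18, 0.03, −0.03 and −0.07. Between single embryos of a group, the median log2 level of the lowest-quartile genes varied with an SD of 0.124, which is not a standard error of the interaction. The median interaction of this quartile was 0.02 in replicates 1 to 3 and 0.42 in replicates 4 to 6, and 0.03 with the improperly staged AcfC embryo included. In this quartile the median log2 fold change of AcfC over *OrR* was 0.19 at Stage 8 and 0 at Stage 3. Its genes average at most 16 normalized counts. For those with few or no counts at Stage 3, a fold change near 0 does not measure a lack of effect.

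Called genes were denser near *Acf*. Within 1 Mb of it on 3R, and leaving out *Acf*, 9 of 78 genes tested were called (11.5%), and between 1 and 2 Mb 4 of 90 (4.44%), compared with 2.09% between 2 and 5 Mb, 2.78% on the rest of 3R and 2.32% on the other chromosome arms. The count within 1 Mb was 8 to 14 with each embryo left out in turn (14 without *OrR* Stage 3 replicate 3), 1 in replicates 1 to 3 (1.28%, against 0.189% of all genes tested there) and 5 in replicates 4 to 6 (6.41%, against 2.95%). The AcfC chromosome descends from another strain, and how much of it around the deletion the backcross replaced is not known, so that an effect of the lost ACF1 and one of linked sequence differences, the marker cassette among them, cannot be told apart for these genes. Without these neighbours within 2 Mb, but with *Acf* itself, 225 of 9347 genes tested were called (2.41%), and the class of falling RNAs held 44 of 1089 (4.04%).

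The neighbours did not move one way. *Mccc1*, which encodes an enzyme of leucine breakdown, is the nearest annotated gene called, 7.4e-05 Mb from *Acf*. It had 119, 124, 126, 122 and 120 CPM in the AcfC embryos of Stage 3, against 72.1 to 81.8 CPM in *OrR* (median 78.8), and 16.3 to 26.6 CPM in AcfC (median 19.3) and 18.9 to 22.8 CPM in *OrR* (median 20.7) at Stage 8. Its level was higher in AcfC before ZGA alone (interaction −0.68, SE 0.123, edgeR adjusted p = 0.00305). *faf*, described above, overlaps *Mccc1* and lies 0.0033 Mb from *Acf*. *PNPase*, a mitochondrial exoribonuclease, had 27.7 to 33.9 CPM in AcfC and 35.2 to 42.1 CPM in *OrR* at Stage 3, and 2.57 to 5.98 CPM in AcfC and 10.2 to 12.4 CPM in *OrR* at Stage 8, lower in every AcfC embryo at both stages and more so at Stage 8 (interaction −0.92, SE 0.175, edgeR adjusted p = 0.00474). Its span overlaps that of *Gcn2*, a kinase of the amino acid response that was also called (−0.63, SE 0.159), so that the counts of the pair may not be fully independent.

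*cindr*, an adaptor protein between cell adhesion and actin, had 76.9 to 87.0 CPM in AcfC and 70.8 to 85.8 CPM in *OrR* at Stage 3, and 117 to 174 CPM in AcfC and 64.3 to 91.7 CPM in *OrR* at Stage 8 (interaction 0.71, SE 0.122, edgeR adjusted p = 0.00196). With *rod*, *CG1792*, *gammaCOP* and *stops* it makes up the 5 positive genes within 1 Mb. The 4 genes between 1 and 2 Mb were *CG7920*, *Atg16* (autophagy, −0.52, SE 0.127), *Etfb* (a mitochondrial electron carrier, −0.76, SE 0.193) and *Cad99C*. *Cad99C*, a cadherin of microvilli, had 0 counts in all 5 AcfC embryos of Stage 3, against 2 to 8 counts in *OrR*, at least 1.62-fold lower in AcfC measured against 3 counts per library, and 2.36 to 15.1 CPM in AcfC (median 4.00) and 1.81 to 6.58 CPM in *OrR* (median 4.28) at Stage 8.

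**Figure D5:**
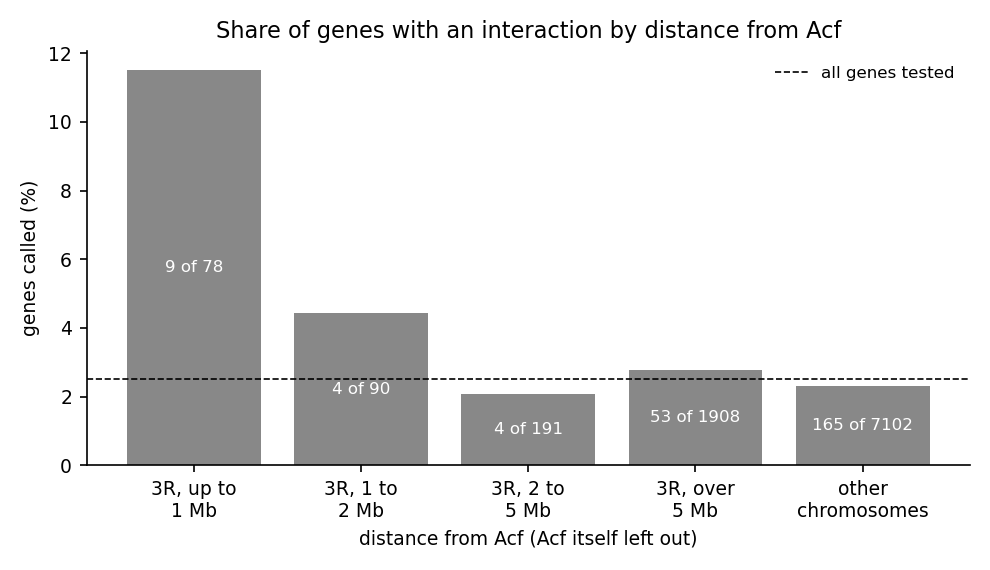
Percent of tested genes with a called interaction by distance from Acf, with the number called of the number tested in each bar and the 2.5% of all genes tested as a dashed line. The share is 11.5% within 1 Mb of Acf on 3R and 4.44% between 1 and 2 Mb, and lies between 2.09 and 2.78% elsewhere.

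The developmental and stress lists were read against the 2.5% of all genes tested that were called and the 14.5% with an unadjusted *P*-value under 0.05. None of the 19 earliest zygotic genes, 38 gastrula patterning genes, 12 sex determination and dosage compensation genes, 14 cell cycle and cellularization genes, 20 Polycomb and heterochromatin genes, 10 heat shock genes, 9 eggshell genes and 5 immune effector genes tested was called by edgeR, and in this order 2, 2, 0, 2, 4, 0, 1 and 0 of them had an unadjusted *P*-value under 0.05. DESeq2 called *Cdk1* of the cell cycle list and *Psc* of the Polycomb list, and limma-voom called *Psc*, with no other gene of these 8 lists called by either. At the share called over all genes, lists of this size would hold few calls or none. The median interactions of the earliest zygotic and gastrula lists were −1.01 and −0.68, and 3 and 22 of their genes had at most 3 counts in every Stage 3 embryo. At Stage 3 all earliest zygotic genes but *Z600* (−0.37) had a positive fitted log2 fold change, from 0.2 (*slam*) to 2.52 (*tll*). None passed the cutoff at that stage (lowest edgeR adjusted p = 0.207, *tll*), and the genotypes overlapped for each. The cause was not tested. The earliest zygotic genes summed to 940 ± 185 CPM in AcfC and 815 ± 96.3 CPM in *OrR* at Stage 8 (SD, n = 6 each), and to 173 ± 37.5 CPM in AcfC (n = 5) and 143 ± 31.1 CPM in *OrR* (n = 6) at Stage 3. Of the Stage 3 sums, *slam* alone held means of 155 CPM in AcfC and 135 CPM in *OrR*. Heat shock genes, a sign of stress, summed to 237 to 785 CPM in AcfC, the highest in AcfC Stage 8 replicate 4, and 218 to 467 CPM in *OrR* at Stage 8. Immune effector genes summed to 52.7 to 118 CPM in AcfC and 40.7 to 58.9 CPM in *OrR* at Stage 3, and to 17.7 to 23 CPM in AcfC and 15.6 to 19.3 CPM in *OrR* at Stage 8. The Stage 3 difference of this sum was carried by *PGRP-LC*, a receptor of the Imd pathway, which had 51.4 ± 21.6 CPM (SD, n = 5) in AcfC and 5.33 ± 4.02 (n = 6) in *OrR*, while *Rel*, the other abundant member, had 38.8 ± 4.06 CPM in AcfC and 42.5 ± 3.34 in *OrR*. The interaction of *PGRP-LC* was −1.38 and was not called (edgeR adjusted p = 0.634). The part of the heat shock and immune lists in the interactions was not tested.

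Of 28 maternal determinants and clearance genes 1 was called, which is near the share over all genes. It was *Hsp83*, the Hsp90 chaperone whose maternal RNA is a classic substrate of clearance, called by edgeR as by DESeq2 and limma-voom. It had 1640, 2240, 1630, 2490 and 2220 CPM in the AcfC embryos of Stage 3, against 2110 to 2490 CPM in *OrR* (median 2370), and 349 to 709 CPM in AcfC (median 658) and 282 to 483 CPM in *OrR* (median 363) at Stage 8. The groups overlapped at both stages, the interaction was 0.79 (SE 0.227, edgeR adjusted p = 0.089), and it was lost when any 1 of 15 embryos was left out, with adjusted p up to 0.173. *His3.3A*, 1 of 2 genes for the replacement histone H3.3 and 1 of 6 linker histone and histone variant genes tested, had 63.8 to 81.6 CPM in AcfC and 51.0 to 65.4 CPM in *OrR* at Stage 3, and 187 to 220 CPM in AcfC and 191 to 213 CPM in *OrR* at Stage 8. Its interaction of −0.32 (SE 0.0947, adjusted p = 0.0989) was lost when any 1 of 18 embryos was left out.

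Called genes lay on every major chromosome arm. They were 34 of 1629 genes tested on 2L (2.09%), 50 of 1921 on 2R (2.60%), 50 of 1811 on 3L (2.76%), 71 of 2268 on 3R (3.13%) and 29 of 1648 on the X (1.76%). Of the 238, 232 were protein-coding. The other 6 were *lncRNA:CR44504*, *lncRNA:CR43905*, *lncRNA:CR31044*, the pseudogene *CR33294* and 2 genes that the annotation used here does not list. *lncRNA:CR43905*, with at most 3 counts in every embryo of Stage 8, and *CG32944*, with at most 3 in every embryo of Stage 3, were the called genes for which 1 stage was too low to give a fold.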

How the data were processed

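Per the labels, rRNA-depleted RNA of single embryos was sequenced from nondirectional libraries. The authors mapped the reads with STAR 2.5.0a and deposited the unnormalised counts of 17370 genes in 24 embryos. Without strand, reads from a stretch shared by overlapping or antisense genes cannot be assigned to either. Genes are said to overlap here where their spans do. Every column was matched to a labelled sample, and no column was without one. Spike-in RNA is described but was not used here. Positions and biotypes came from the Ensembl annotation of the same release 6 assembly, which lists 17155 of the genes.

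All 9515 genes that passed the filter, 8698 of them protein-coding, were fitted in R 4.3.3 with edgeR 4.0.16 (TMM, 4 groups, two-sided quasi-likelihood test, log2 fold changes with a prior count of 0.125). DESeq2 1.42.0 and limma 3.58.1 served for alternatives. The test was checked on simulated data. Embryos are separate animals. Pairs of embryos of 1 group differed by more than counting error (chi-square per degree of freedom 3.86 to 58.8 over 55 pairs). Replicate numbers did not pair the embryos, since deviations of same-numbered embryos correlated between −0.511 and 0.299. Called means an adjusted *P*-value under 0.1, as in the study.

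The members, gene lists and alternatives were chosen with earlier results of these data known. Genes named by rule were *Acf*, *Iswi*, *Chrac-14* and *Chrac-16*, in each direction the 8 called genes with the largest interaction and the 4 further ones with the smallest *P*-value, up to 6 genes with opposite effects past the cutoff at both stages, and up to 3 called genes of each list, the ranked ones and the opposite-effect ones also needing, at each stage, 10 or more normalized counts on average in 1 genotype or both. Called genes within 2 Mb of *Acf* and those said to be named after their values were seen came in addition. Promoter motifs were not analysed here.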

Additional observations from a re-analysis of the deposited data

Results flagged for a closer look

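The genotype effect differed between the stages, by the edgeR test of the difference itself, for 238 genes, including 30 of the genes named by rule. Their interactions (log2 scale, Stage 8 minus Stage 3) were −0.85 for *Acf*, 7.82 for *stops*, 6.20 for *Ih*, 5.02 for *modSP*, 4.91 for *tipE*, 3.58 for *CG11382*, 3.28 for *Phyhd1*, 3.10 for *CG7565*, 2.95 for *CG13101* and 2.66 for *Galphas*. Smaller positive values were 1.15 for *rod*, 1.09 for *CG1792*, 0.96 for *CG7878*, 0.79 for *Hsp83*, 0.71 for *CG10286* and 0.48 for *gammaCOP*. Negative values were −4.62 for *lncRNA:CR44504*, −3.85 for *otk2*, −3.54 for *exp*, −3.12 for *Kank*, −2.86 for *Ac3*, −2.58 for *tna*, −2.16 for *CG17167*, −2.04 for *CG5065*, −1.72 for *CG7920*, −1.53 for *Dyro*, −1.52 for *faf*, −1.35 for *fz2*, −1.18 for *corn* and −0.32 for *His3.3A*.

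In 11 of 132 combinations of a named gene and a group, 1 embryo stood farther from the others than Dixon's criterion allows, of which chance gives about 1 in 20. AcfC Stage 8 replicate 6 was that embryo for 4 genes, with 115 CPM of *rod*, 35.9 CPM of *CG7878*, 6.86 CPM of *Ih* and 21.6 CPM of *CG7565*. *OrR* Stage 3 replicate 3 was it for 3 genes, with 127 CPM of *rod*, 0.532 CPM of *corn* and 0.426 CPM of *lncRNA:CR44504*. The others were AcfC Stage 8 replicate 5 for *Dyro* (5.51 CPM), AcfC Stage 3 replicate 5 for *CG17167* (6.64 CPM), *OrR* Stage 3 replicate 6 for *CG11382* (3.51 CPM) and *OrR* Stage 8 replicate 3 for *stops* (0 CPM).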

How the results depend on the processing

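All 238 genes kept their direction wherever they were tested, except 2 when the improperly staged AcfC embryo was included. These fits reuse the embryos by which the genes were picked, so the kept directions are no independent check. The number called was 579 with DESeq2 (245 positive, 334 negative), 647 with the stages fitted separately (296 and 351), 401 with all 24 embryos (187 and 214), 148 at an adjusted *P*-value under 0.05 (82 negative), 143 after thinning to the smallest library (73 negative), 18 in replicates 1 to 3 alone (10 and 8) and 281 in replicates 4 to 6 alone (172 positive). Without a filter 85 negative genes were called, and with counts required at each stage 157 positive ones. With Stage 8 embryo sex in the model, an alternative chosen after seeing the data, 377 were called (161 and 216). With each embryo left out in turn, 152 to 511 genes were called, 66 to 257 positive and 81 to 254 negative. A replicate block gave 174 called genes, 166 of them among the 238, and the numbers do not pair the embryos. Positive genes made up 41.6% of the calls, but 54.3% with edgeR's own expression filter, 55.6% and 61.2% in replicates 1 to 3 and 4 to 6 alone, 53% without AcfC Stage 8 replicate 5 and 53.6% without *OrR* Stage 8 replicate 6. The median interaction of the lowest quartile was 0.18, and 0.38 without a filter, 0.03 with all 24 embryos, 0.01 with voom and a variance per group, 0.02 and 0.42 in replicates 1 to 3 and 4 to 6, and 0.09 to 0.28 with each embryo left out. Of the 30 called genes named by rule, 25 kept their call with every embryo left out, and none reversed. Under the other alternatives, limma-voom ended the calls of *Ih*, *exp*, *CG13101*, *tipE* and *lncRNA:CR44504*, thinning those of *corn*, *CG5065*, *CG17167*, *tipE* and *His3.3A*, and all 24 embryos that of *Galphas*. Within replicates 1 to 3 alone 23 of the 30 were not called, and within replicates 4 to 6 alone 9. The stricter cutoff, the replicate block, the index set in the model and the changes of filter ended calls only among the 5 genes that also lost theirs with an embryo left out. The causes were not tested. Sex from *roX1* and *roX2* was not run, since their counts did not separate the embryos. Leaving out rRNA genes, also chosen after seeing the data, gave 221.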
